A study of Homo sapiens with 15 samples.

Results

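Starved cells that carry a hairpin against the splicing factor SRSF1 were compared with fed cells of the same line, gene by gene. The cells are 293T, a human embryonic kidney line that expresses the SV40 large T antigen. The comparison takes 6 of the 15 samples of the series, 3 libraries a group, and was chosen by the column names of the deposited expression table. It covers all 19966 genes of that table. The shSRSF1 cells are labelled SRSF1 knockdown and were kept without serum for 12 h before harvest. The fed cells are labelled wild type with 0 h of starvation, in DMEM with 10% fetal bovine serum. Levels are given beside these for 3 libraries of starved wild-type cells, which had the same 12 h without serum and no hairpin. Serum and hairpin both differ between shSRSF1 and fed cells, so their effects cannot be told apart in this comparison. Control libraries with an unrelated hairpin number 0 in the labels, which also do not say whether replicates were separate cultures. The p-values therefore measure the spread between these libraries, which may be technical.

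SRSF1 is an SR protein, a family that binds exonic RNA sequences and guides the choice of splice sites. Serum supplies growth factors whose receptors signal through RAS and the kinases RAF, MEK and ERK. ERK switches on immediate early genes such as FOS and EGR1 within minutes, and later the phosphatases and Sprouty proteins that limit the same signal. The title of the study names the MAPK pathway, ribosomal stress and cell proliferation as its subject.

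The libraries held 11775367 to 15231651 reads in genes. Genes with at least 1 read numbered 15591 to 15720 in shSRSF1 libraries and 15350 to 15420 in fed libraries. These ranges did not overlap (exact permutation test, two-sided p = 0.1, the smallest possible with 3 against 3). The mitochondrially encoded share of reads was 3.52%, 3.75% and 5.56% in shSRSF1 replicates 1, 2 and 3, against 3.27%, 3.63% and 3.93% in fed replicates. The shSRSF1 replicate 3 stood apart from its group. Its correlations with the other shSRSF1 libraries across genes were 0.976 and 0.969, against 0.994 between replicates 1 and 2. It also held more reads of several genes known from blood leukocytes. CSF3R, CYTH4, LILRB2, SERPINA1 and TYROBP, and also PGAM4, a copy of a glycolytic gene, had at least 20 reads and at least 4 times the level of every other library there, and no other library had any gene of that kind. The summed level of 10 leukocyte markers was 3.61, 3.89 and 11.03 FPKM in shSRSF1 libraries, 3.55 to 5.13 FPKM in starved libraries and 2.45 to 3.39 FPKM in fed libraries, with CD14 (57 reads in replicate 3, 24 and 22 in the others) and LYZ (124 reads in replicate 3, 12 and 23 in the others, at most 61 in a starved and 23 in a fed library) among them. FPKM is the read count of a gene scaled for the length of its gene model and for the reads in genes of its library. What part this plays in the results was not tested. Counts of 5 or more called genes of a list are also given without that library where they differ by more than 1.5 times, and counts of 1 to 4 rest on few calls and moved with several of the libraries. The label of a renal epithelial cell type was only partly borne out by 10 markers, as KRT8 (18.4 ± 3.28 FPKM in shSRSF1 and 16.0 ± 1.34 FPKM in fed cells, SD, n = 3 each) and KRT18 (14.1 ± 1.31 and 12.7 ± 0.86 FPKM) were the most abundant. PAX8, KRT19 and CDH16 had 0 or 1 read over either group. The summed level of 10 fibroblast markers was 4.18 to 4.75 FPKM in shSRSF1 and 6.03 to 6.12 FPKM in fed libraries, and that of 8 endothelial markers was 11.6, 11.4 and 5.80 FPKM in shSRSF1 and 13.9 to 14.1 FPKM in fed libraries. Most of the endothelial sum was EGFL7 (8.75 ± 3.13 and 13.6 ± 0.11 FPKM), which was not called. PECAM1, VWF, CDH5, ROBO4, KDR and CLDN5 had more reads over the shSRSF1 libraries (66, 64, 17, 12, 29 and 28) than over the fed libraries (15, 30, 6, 0, 25 and 26), and TEK had fewer (5 and 7). The summed level of 8 neuronal markers was 80.1 to 95.6 FPKM in shSRSF1 and 62.4 to 66.2 FPKM in fed libraries. Of the 5 neuronal markers tested, 1 was called higher and 0 lower. It was ENO2, which is also on the glycolysis list. The neurofilament genes NEFL (32.5 ± 4.19 and 27.6 ± 1.69 FPKM) and NEFM (35.1 ± 6.49 and 27.9 ± 0.97 FPKM) were more abundant than any of the 10 renal markers.

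The label of the hairpin was set against the level of its target first. SRSF1 (ENSG00000136450, chromosome 17) had 31.2, 31.5 and 30.4 FPKM in shSRSF1 cells, 42.1, 37.8 and 40.0 FPKM in starved cells and 34.3, 32.8 and 31.7 FPKM in fed cells. Each shSRSF1 library lay below each starved and each fed library, although the margin to the lowest fed library was small. Such separation from the fed libraries was common among the 11133 tested genes. Without overlap, 2539 genes were lower and 2005 higher in shSRSF1 than in fed libraries, 40.8% of those tested. Here and below, a lack of overlap with fed libraries therefore says little by itself about a single gene. On the log2(FPKM + 1) scale, SRSF1 in shSRSF1 cells was 0.35 lower than in starved cells (difference -0.35 ± 0.07, SE, limma adjusted p = 0.00343). Against fed cells the difference was -0.08 ± 0.07 (limma adjusted p = 0.455, 95% interval -0.25 to 0.08) and did not pass the test. Against fed cells the level of SRSF1 mRNA is therefore no check of the label. For scale, 44.5% of tested genes differed between shSRSF1 and starved cells and 41.1% between starved and fed cells at the same threshold. SRPK1, a kinase of SR proteins, differed from fed cells by 0.18 (adjusted p = 0.22) and UPF1, the helicase of nonsense-mediated decay, by 0.17 (adjusted p = 0.177).

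Of 11133 genes tested, 2023 differed between shSRSF1 and fed cells at a limma adjusted p below 0.05, which is 18.2% of them. Higher in shSRSF1 cells were 938 genes, 8.43% of those tested, and lower were 1085 genes, 9.75%. Counts of called list members below are to be read against these shares. Most differences were small, with a median of 0.44 among the higher and -0.48 among the lower genes on the log2(FPKM + 1) scale, and a median over all tested genes of -0.03. Differences of 1 or more were seen for 60 higher genes (0.539%) and 33 lower genes (0.296%). Among genes at a mean of 5 FPKM or more and without overlap of the groups, the largest rises were those of HBB, EGR1, HSPA6, ARC and ANKRD1, and the largest falls those of TXNRD1, APP, CHAC1, ID2 and GAMT. Leaving out fed replicate 1, 2 or 3 reduced the count of called genes to 824, 979 and 1053, while no other library moved it by more than 1.5 times.

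**Figure D1:**
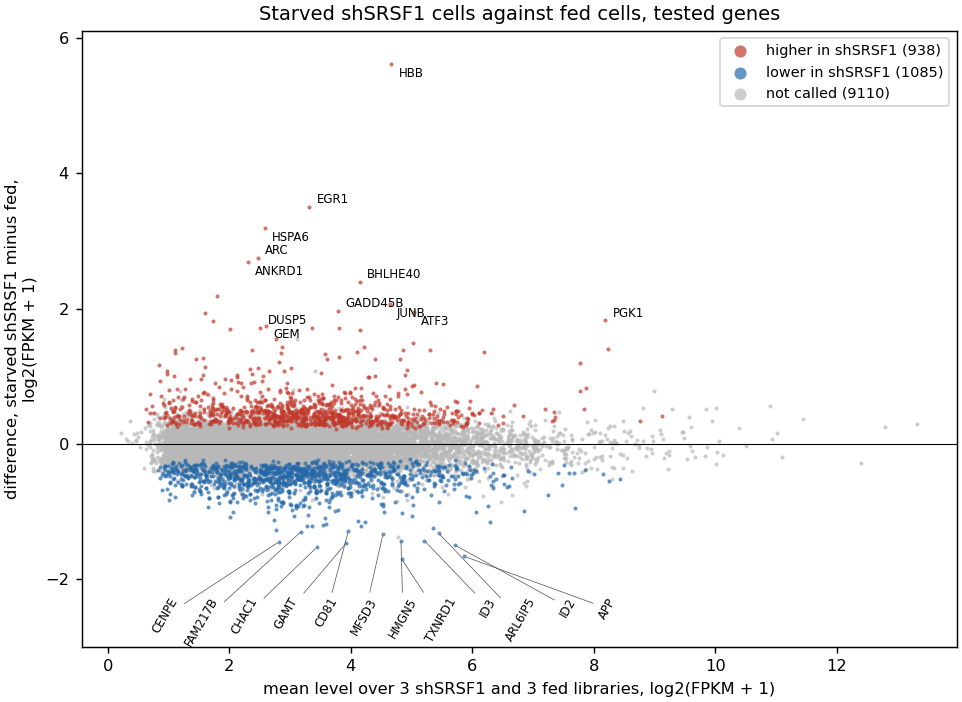
Difference between starved shSRSF1 and fed cells (vertical axis, log2(FPKM + 1)) against the mean level over the 6 libraries (horizontal axis, log2(FPKM + 1)), 1 point a tested gene. Red points are the 938 genes called higher, blue points the 1085 called lower, and grey points were not called. HBB stands highest at 5.61, and TXNRD1 lowest among the labelled genes at -1.71.

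Promoter sequences are shown for 5 of the genes with the largest rises, because each holds a short word bound by a factor known for its class of genes. They are RefSeq sequences of GRCh38.p14, 250 bases before to 50 bases after the annotated start, 5′ to 3′ on the strand of the gene. Capitals mark the word on either strand. In EGR1 (chr5:138465229-138465528, plus strand) they are 2 CArG boxes, the element of serum response factor. In ANKRD1 (chr10:90921038-90921337, minus strand) they are 2 copies of GGAATG, the word of TEAD factors. In BHLHE40 (chr3:4979187-4979486, plus strand) and PGK1 (chrX:78103998-78104297, plus strand) they are ACGTG, the core of the hypoxia response element, found 4 and 3 times. The first 2 matches in BHLHE40 overlap as 1 palindrome read on both strands. In HSPA6 (chr1:161524290-161524589, plus strand) they are 1 heat shock element, read on the other strand.
EGR1: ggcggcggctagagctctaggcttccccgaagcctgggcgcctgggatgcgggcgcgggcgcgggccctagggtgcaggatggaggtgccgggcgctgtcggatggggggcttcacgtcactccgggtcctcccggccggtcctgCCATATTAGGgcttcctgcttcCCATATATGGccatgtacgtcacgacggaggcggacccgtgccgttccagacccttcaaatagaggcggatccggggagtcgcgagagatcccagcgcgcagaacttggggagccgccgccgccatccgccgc
ANKRD1: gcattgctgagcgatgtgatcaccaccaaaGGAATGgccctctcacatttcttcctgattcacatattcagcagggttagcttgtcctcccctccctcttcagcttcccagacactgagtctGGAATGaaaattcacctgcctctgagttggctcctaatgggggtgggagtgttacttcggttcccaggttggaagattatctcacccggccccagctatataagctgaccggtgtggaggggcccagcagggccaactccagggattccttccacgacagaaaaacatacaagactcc
BHLHE40: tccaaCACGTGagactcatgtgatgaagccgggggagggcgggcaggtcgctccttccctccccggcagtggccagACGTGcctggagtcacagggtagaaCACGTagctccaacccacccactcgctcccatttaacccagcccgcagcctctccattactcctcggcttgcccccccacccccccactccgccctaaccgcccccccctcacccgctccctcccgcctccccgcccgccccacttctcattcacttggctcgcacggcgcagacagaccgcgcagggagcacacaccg
PGK1: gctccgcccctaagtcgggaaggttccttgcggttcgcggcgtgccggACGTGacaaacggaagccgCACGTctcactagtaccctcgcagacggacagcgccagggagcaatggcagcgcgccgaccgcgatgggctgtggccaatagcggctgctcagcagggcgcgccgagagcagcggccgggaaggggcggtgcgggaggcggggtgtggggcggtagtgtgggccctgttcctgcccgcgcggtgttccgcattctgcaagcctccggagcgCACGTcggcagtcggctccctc
HSPA6: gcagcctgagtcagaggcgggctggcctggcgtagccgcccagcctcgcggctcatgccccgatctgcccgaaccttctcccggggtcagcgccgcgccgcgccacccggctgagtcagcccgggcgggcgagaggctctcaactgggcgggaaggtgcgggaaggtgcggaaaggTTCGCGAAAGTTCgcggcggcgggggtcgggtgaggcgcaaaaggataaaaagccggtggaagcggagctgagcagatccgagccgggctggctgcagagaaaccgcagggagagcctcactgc

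The same words were counted in the promoters of the 9053 tested genes found in that table. The CArG box stood in 1.05% of them and in 1 of the 40 genes that were higher by 1 or more and had a promoter, which is EGR1. The CRE word TGACGTCA stood in 3.49% of all and in 6 of those 40, namely DUSP1, DUSP8, EPHA2, JUND, MAFF and PPP1R15A. GGAATG stood in 10.4% of all promoters and in 4 of those 40, a share at the level of all promoters. On the list of YAP and TEAD targets it stood in 6 of 13 promoters and in 5 of the 9 called higher. ACGTG stood in 27.2% of all and in 11 of those 40, again at the level of all promoters. It stood in 7 of 15 glycolysis promoters, 5 of them among the 7 called higher, and in 10 of 22 hypoxia promoters, 6 of them among the 15 called higher, so the hypoxia genes called higher did not hold it more often than the rest of their list. The heat shock element stood in 0.254% of all in 1 of those 40, and in 5 of 21 heat shock chaperone promoters, 2 of them (HSPA6 and HSPA8) among the 7 called higher. A match describes the letters and does not show that a factor was bound.

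Most immediate early genes rose. Of 18 tested transcription factors of this class (of 23 listed), 13 were higher in shSRSF1 cells by limma and the other 5 did not pass, with a median difference of 1.07 against -0.03 over all tested genes. The level filter asked for 1 FPKM in at least 3 libraries, which FOS and EGR1 met only through the shSRSF1 libraries. Genes admitted in this way enter as rises, which lifts the counts and medians of their lists. The same holds, among others, for ARC, ETV5, ANKRD1, HSPA6, GDF15, BCL3 and the histone gene H2BC21 on other lists. EGR1, a zinc finger factor induced by growth factors, had 15.8, 15.9 and 20.05 FPKM in shSRSF1 cells, 0.88, 1.06 and 0.88 FPKM in starved cells and 0.18, 0.91 and 0.82 FPKM in fed cells. All shSRSF1 libraries were far above the others, while starved and fed libraries overlapped. The mean was 27.2-fold that of fed cells (difference 3.51 ± 0.17, limma adjusted p = 1.52e-06). FOS, a subunit of AP-1, had 4.29, 4.70 and 5.00 FPKM in shSRSF1 cells, 0.915, 0.50 and 0.87 FPKM in starved cells and 0.11, 0.42 and 0.23 FPKM in fed cells, so the 3 groups followed each other without overlap. It was higher than in fed cells by 2.18 ± 0.12 (adjusted p = 3.48e-06, limma). JUNB, its AP-1 partner, had 43.3, 45.9 and 29.1 FPKM in shSRSF1 cells, with replicate 3 the lowest, 12.0 to 18.6 FPKM in starved cells and 7.97 to 9.49 FPKM in fed cells. ATF3, a stress-induced member of the same superfamily, averaged 51.4 ± 9.196 FPKM in shSRSF1 cells, 11.7 FPKM in starved cells and 12.5 ± 0.10 FPKM in fed cells (SD, n = 3 each).

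Early genes outside the transcription factors moved the same way. Of 18 tested, 15 were called higher by limma and the other 3 did not pass (median 0.68). Some genes, IER3 among them, stand on more than 1 list and are counted in each. ARC, a cytoskeletal gene of neuronal activity, had 9.19, 10.8 and 5.96 FPKM in shSRSF1 cells, 0.66, 0.68 and 0.76 FPKM in starved cells and 0.46, 0.27 and 0.48 FPKM in fed cells. The lowest shSRSF1 library was replicate 3, and it still lay well above all others (21.3-fold in means, difference 2.75 ± 0.16, limma adjusted p = 5.05e-06). GEM, a small GTPase, averaged 8.33 ± 0.31 FPKM in shSRSF1 cells, 1.07 FPKM in starved cells and 1.78 ± 0.12 FPKM in fed cells. CSRNP1, an AXIN1-induced nuclear factor, had 16.9, 15.0 and 12.4 FPKM in shSRSF1 cells, against 3.38, 4.14 and 3.83 FPKM in fed cells. IER3, an ERK substrate and survival factor, had 8.05, 9.53 and 11.3 FPKM in shSRSF1 cells, against 3.89, 2.29 and 2.73 FPKM in fed cells. In each of these 4 genes all shSRSF1 libraries were above all starved and fed libraries.

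**Figure D2:**
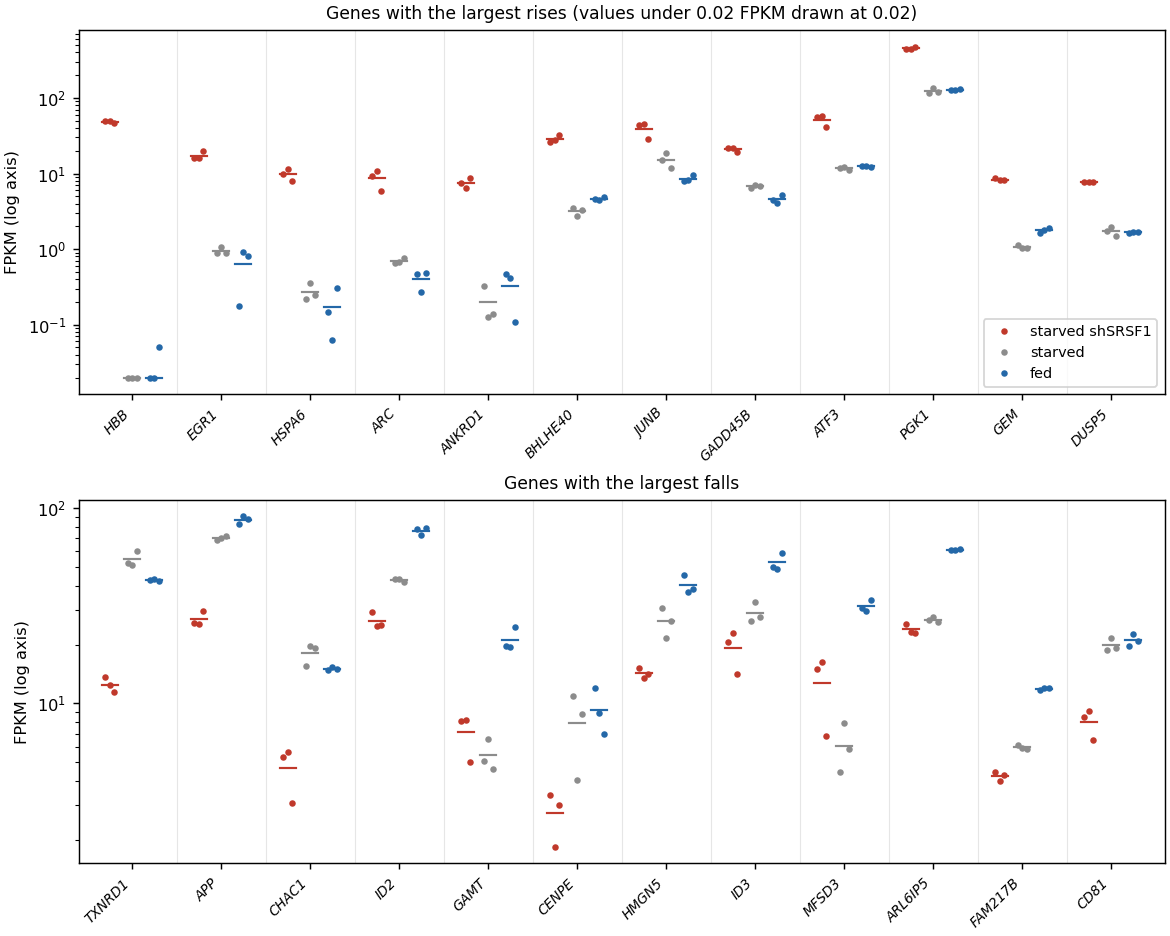
Levels of the 12 genes with the largest rises (upper panel) and the 12 with the largest falls (lower panel) by library, in FPKM on a log axis, for starved shSRSF1 (red), starved (grey) and fed (blue) cells. Points are libraries, bars are group means, and values under 0.02 FPKM are drawn there. No shSRSF1 library overlaps a fed library in any panel, which the choice of these genes required, and GAMT, ARL6IP5 and MFSD3 are low in starved cells too.

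Most ERK feedback genes rose, while few genes of the kinase cascade did. Of 16 tested feedback and output genes, 11 were higher by limma and the other 5 did not pass (median 0.73). DUSP5, a nuclear phosphatase of ERK, had 7.81, 7.61 and 7.82 FPKM in shSRSF1 cells, 1.72, 1.96 and 1.49 FPKM in starved cells and 1.64, 1.68 and 1.69 FPKM in fed cells. Starved and fed libraries were at the same level, and shSRSF1 libraries were 4.64-fold above fed (difference 1.71 ± 0.08, limma adjusted p = 1.52e-06). ETV5, an ETS factor of the PEA3 group, was at 1.27, 1.55 and 1.65 FPKM in shSRSF1 cells and at 0.105 to 0.139 FPKM in starved and 0.057 to 0.153 FPKM in fed cells. EPHA2, an ephrin receptor and ERK target, averaged 16.2 FPKM in shSRSF1 cells, 7.21 FPKM in starved cells and 6.20 FPKM in fed cells. SPRY4, a Sprouty inhibitor of receptor signalling, was below the level filter, with 76 reads over the 3 shSRSF1 libraries against 1 read in fed and 1 read in starved libraries.

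Among 9 tested MAPK phosphatases outside that list, 5 were higher by limma and the other 4 did not pass. DUSP8, which acts on JNK and p38, had 7.69, 9.03 and 10.8 FPKM in shSRSF1 cells, 3.04, 3.62 and 3.59 FPKM in starved cells and 2.19, 2.70 and 2.51 FPKM in fed cells. DUSP1, an early phosphatase of p38, JNK and ERK, had 28.2, 25.9 and 24.5 FPKM in shSRSF1 cells, 10.7, 12.9 and 12.9 FPKM in starved cells and 9.24, 8.87 and 9.15 FPKM in fed cells. Both rose without overlap with either other group. DUSP16, a JNK phosphatase, differed by 0.67 ± 0.08 and DUSP10 by 0.56 ± 0.13 (limma adjusted p = 0.000703 and 0.015). The call of DUSP10 ended when fed replicate 2 was left out, and the count of this list then fell to 3.

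Of 41 tested members of the RAS and MAPK cascade, 2 were higher (4.88%) and 7 lower (17.1%), against 8.43% and 9.75% of all tested genes. NRAS had 36.0, 32.5 and 36.7 FPKM in shSRSF1 cells, against 50.9, 52.2 and 50.1 FPKM in fed cells (difference -0.53 ± 0.09, limma adjusted p = 0.00458). The phosphatase PTPN11, the ERK-activated kinase RPS6KA3 and the adaptor GAB1 were lower too, with differences of -0.46, -0.52 and -0.47 in that order. Without fed replicate 1, 2 or 3 the lower genes numbered 1, 1 and 4 and the higher 0, and the higher also numbered 0 without shSRSF1 replicate 1 or 2 and 1 without replicate 3. Of 9 growth factors at a testable level, of 25 listed, HBEGF, VEGFA and HDGF were higher, but HDGF was called in 16 of 25 settings and 2 of the list were higher when any fed library was left out. HBEGF, an EGF receptor ligand, had 3.32, 3.34 and 4.59 FPKM in shSRSF1 cells, against 1.46, 2.29 and 1.69 FPKM in fed cells. Of 16 growth factor receptors, IGF1R (0.49) and FGFR1 (0.32) were higher (12.5%) and FGFR3 (-0.57) was lower (6.25%), and 1 receptor was higher when any fed library was left out. Of 25 FOXO targets and insulin pathway genes, 2 were higher (8%) and 1 lower (4%), no more than over all tested genes. On this list too 1 gene was higher when any fed library was left out. Its transcriptional co-activator CITED2 had 28.5, 31.0 and 40.6 FPKM in shSRSF1 cells against 18.4 to 19.7 FPKM in fed cells.

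**Figure D3:**
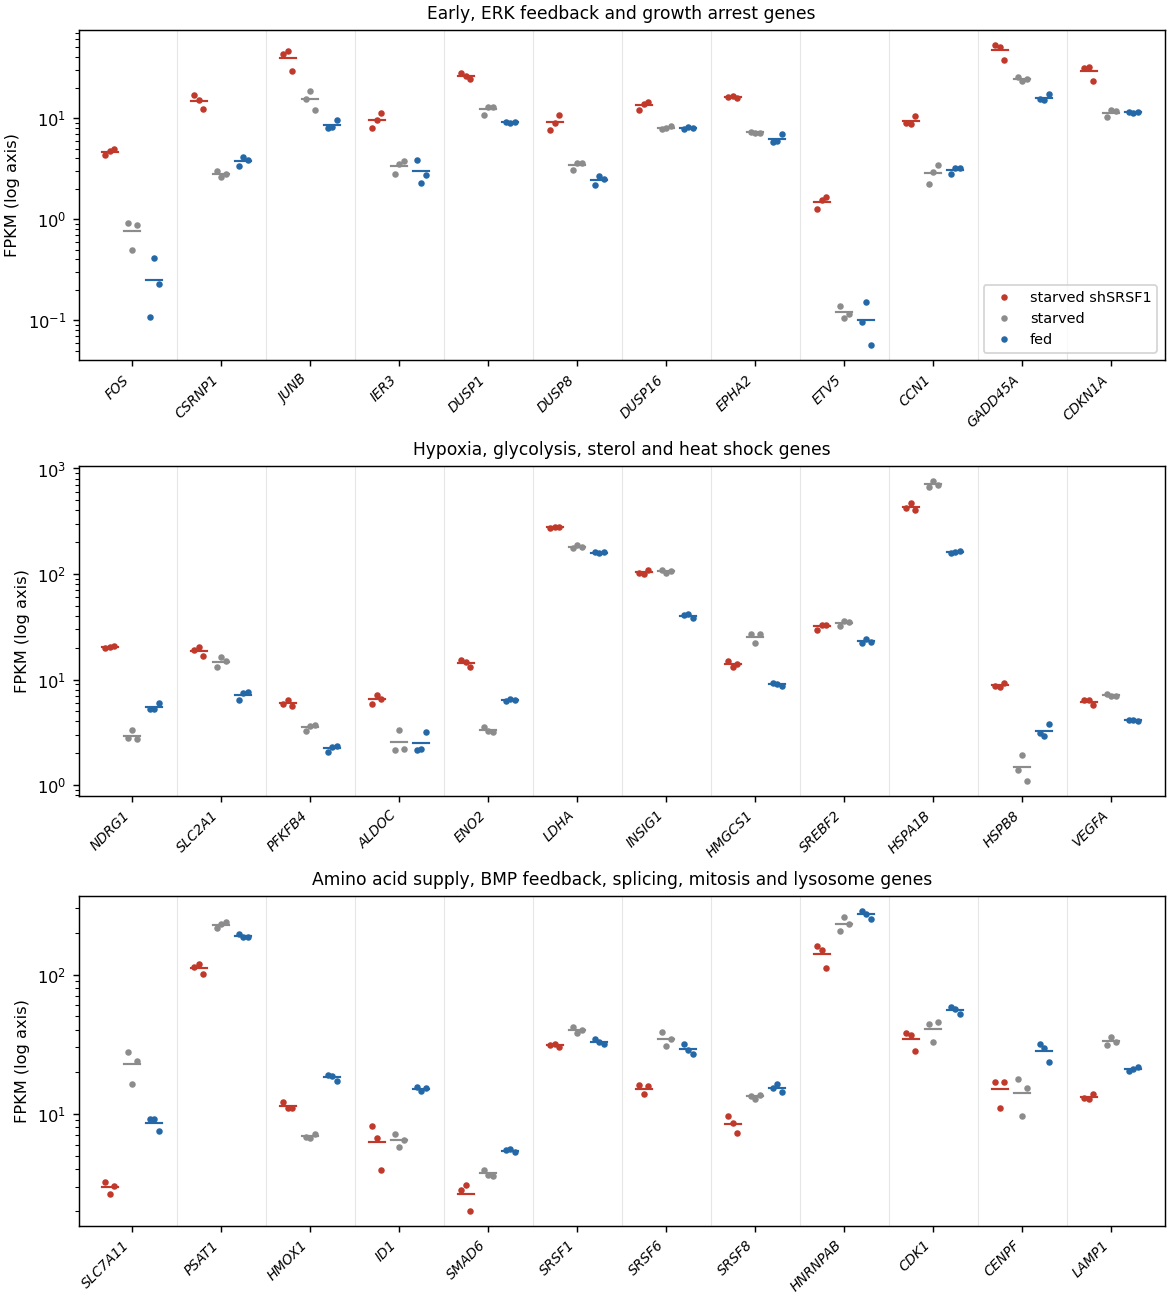
Levels of 36 genes by library, in FPKM on a log axis, for starved shSRSF1 (red), starved (grey) and fed (blue) cells. Points are libraries and bars are group means. In the upper panel the red points lie above the grey and blue ones for each gene. In the middle panel INSIG1, HSPA1B and VEGFA are raised in starved cells as well, whereas NDRG1 and ENO2 are lowest in starved cells. In the lower panel SLC7A11 and LAMP1 are lowest in shSRSF1 and highest in starved cells.

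Targets of YAP and TEAD, the factors at the end of the Hippo pathway, were higher in 11 of 20 tested cases by limma, and the other 9 did not pass (median 0.31). ANKRD1, a muscle ankyrin repeat protein and common readout of YAP, had 7.401, 6.53 and 8.64 FPKM in shSRSF1 cells, 0.33, 0.13 and 0.14 FPKM in starved cells and 0.46, 0.41 and 0.11 FPKM in fed cells. It was 22.9-fold higher in the means (difference 2.69 ± 0.13, limma adjusted p = 1.52e-06), with starved and fed libraries overlapping each other. CCN1, a matricellular protein, had 8.91, 8.75 and 10.4 FPKM in shSRSF1 cells, 2.21, 2.96 and 3.45 FPKM in starved cells and 2.80, 3.18 and 3.24 FPKM in fed cells. The stress sensors GADD45B (21.97, 21.6 and 19.3 FPKM in shSRSF1 cells against 4.53, 4.05 and 5.26 FPKM in fed cells) and GADD45A (52.5, 50.7 and 37.5 FPKM in shSRSF1 cells against 15.4, 15.1 and 17.3 FPKM in fed cells) are also on this list. Both were higher in starved than in fed cells too, by 0.48 and 0.58 (limma adjusted p = 0.00264 and 0.00343). Actin cytoskeleton and SRF/MRTF targets gave 4 of 22 higher (18.2%) and 1 lower (4.55%), against 8.43% and 9.75% of all tested genes. Leaving out a fed library left 0 or 1 higher, and leaving out shSRSF1 replicate 2 or starved replicate 3 left 2. CNN2, ZYX and VCL differed by 0.53, 0.42 and 0.33, and PDLIM7 by -0.45. The call of PDLIM7 was lost without any 1 fed library, shSRSF1 replicate 1 or 3, or starved replicate 1.

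Genes of the low-oxygen response were higher in 18 of 26 tested cases by limma, and the other 8 did not pass (median 0.53). The labels record no low oxygen for any group. BHLHE40, a repressor of the circadian clock and hypoxia target, had 26.5, 27.8 and 32.3 FPKM in shSRSF1 cells, 3.46, 2.73 and 3.27 FPKM in starved cells and 4.60, 4.49 and 4.86 FPKM in fed cells. NDRG1, a stress-responsive differentiation gene, had 19.8, 20.4 and 20.96 FPKM in shSRSF1 cells, 2.79, 3.34 and 2.71 FPKM in starved cells and 5.27, 5.29 and 6.05 FPKM in fed cells. Both were lower in starved than in fed cells (differences -0.45 and -0.73, limma adjusted p = 0.00504 and 0.000145) and higher in shSRSF1 than in fed cells (2.40 ± 0.10 and 1.71 ± 0.09, adjusted p = 8.68e-07 and 2.18e-06). SLC2A1, the glucose transporter GLUT1, was instead above fed cells in both starved groups, at 19.1, 20.4 and 16.6 FPKM in shSRSF1 cells, 13.2, 16.2 and 14.9 FPKM in starved cells and 6.40, 7.45 and 7.56 FPKM in fed cells. PFKFB4, which makes an activator of glycolysis, differed by 1.11 ± 0.08 (limma adjusted p = 2.44e-05).

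Of 16 glycolysis genes, 7 were higher and 2 lower by limma (median 0.36), and 0 or 1 were lower without any 1 fed library, 1 without shSRSF1 replicate 1 or 3. PGK1, the phosphoglycerate kinase, was among the most abundant genes to change, at 441, 445 and 475 FPKM in shSRSF1 cells, 117, 135 and 122 FPKM in starved cells and 126, 126 and 129 FPKM in fed cells. It was 3.57-fold higher in shSRSF1 than in fed cells (difference 1.83 ± 0.09, limma adjusted p = 1.52e-06), whereas starved and fed libraries overlapped. Part of the reads of PGK1 may belong to its processed copies, as the counting of such reads is not given in the sources used here. LDHA, which makes lactate, had 274, 278 and 276 FPKM in shSRSF1 cells, 175, 190 and 179 FPKM in starved cells and 161, 157 and 161 FPKM in fed cells. ENO2, an enolase, had 15.3, 14.7 and 13.0 FPKM in shSRSF1 cells, 3.54, 3.26 and 3.16 FPKM in starved cells and 6.22, 6.56 and 6.45 FPKM in fed cells. The aldolase ALDOC differed by 1.11 ± 0.15 (limma adjusted p = 0.00115). Clock genes were higher in 5 of 14 cases (35.7%, against 8.43% of all tested genes). Among them was the nuclear receptor NR1D1, at 3.10, 3.27 and 2.87 FPKM in shSRSF1 cells, 0.69 to 0.83 FPKM in starved cells and 1.498, 1.84 and 1.30 FPKM in fed cells.

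**Figure D4:**
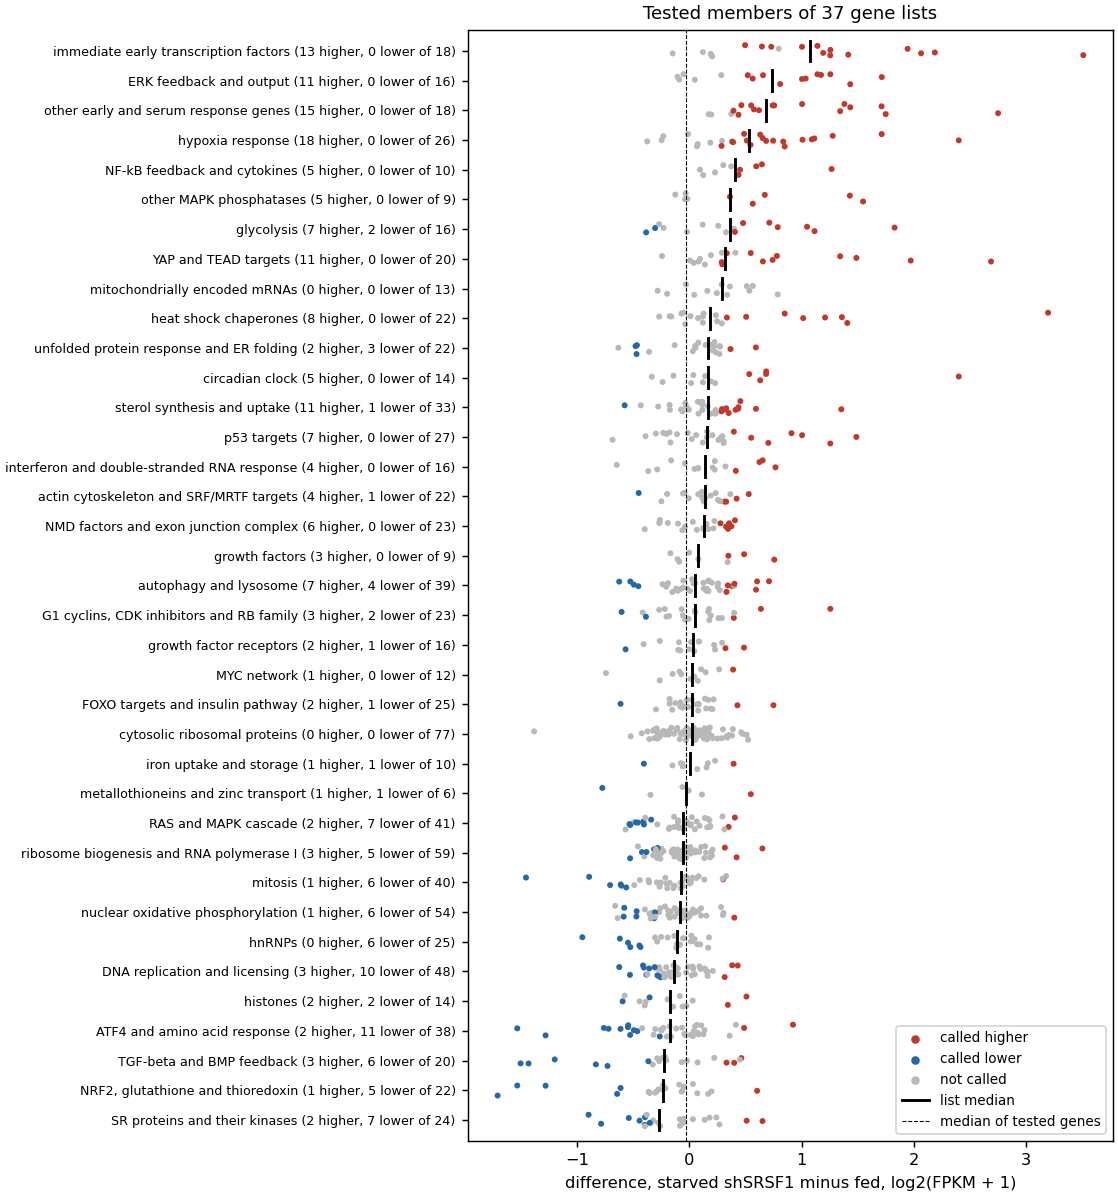
Differences between starved shSRSF1 and fed cells for each tested member of 37 gene lists (horizontal axis, log2(FPKM + 1)), with lists ordered by their median (black bars). Red points were called higher, blue lower and grey not called, and the dashed line is the median of all tested genes at -0.03. Immediate early transcription factors stand at the top with a median of 1.07 and SR proteins and their kinases at the bottom with -0.27.

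Heat shock genes were higher in 8 of 22 tested cases by limma and the other 14 did not pass (median 0.18). HSPA6, an HSP70 form that is silent in unstressed cells, had 9.74, 11.6 and 7.99 FPKM in shSRSF1 cells, 0.22, 0.35 and 0.25 FPKM in starved cells and 0.15, 0.06 and 0.31 FPKM in fed cells. All 3 shSRSF1 libraries were far above the other 6, with a difference from fed cells of 3.19 ± 0.13 (limma adjusted p = 8.35e-07). The main inducible HSP70 gene HSPA1B followed another order, with 423, 474 and 403 FPKM in shSRSF1 cells, 664, 766 and 698 FPKM in starved cells and 159, 162 and 167 FPKM in fed cells. Its near-identical copy HSPA1A had 21.8, 26.9 and 22.04 FPKM in shSRSF1 cells, 35.6, 47.1 and 41.7 FPKM in starved cells and 7.71, 9.38 and 8.64 FPKM in fed cells, and the split of reads between these copies is uncertain. HSPB8, a small chaperone of selective autophagy, averaged 8.84 FPKM in shSRSF1 cells, 1.47 FPKM in starved cells and 3.27 FPKM in fed cells.

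Sterol genes, which are controlled by SREBP factors, were higher in 11 of 33 tested cases (33.3%) and lower in 1 (median 0.17). INSIG1, the sterol sensor of the endoplasmic reticulum, had 103, 100 and 110 FPKM in shSRSF1 cells, 108, 103 and 106 FPKM in starved cells and 40.8, 41.5 and 38.4 FPKM in fed cells, so both starved groups stood together above fed cells. HMGCS1, an early enzyme of the pathway, had 15.0, 13.3 and 13.998 FPKM in shSRSF1 cells, 27.0, 22.1 and 27.2 FPKM in starved cells and 9.26, 9.03 and 8.70 FPKM in fed cells, an intermediate level without overlap. The factor SREBF2 was 0.45 ± 0.08 higher and TM7SF2, a sterol reductase, 0.57 lower (difference -0.57 ± 0.15, limma adjusted p = 0.0241). Leaving out a fed library left 6 higher and 0 lower, leaving out shSRSF1 replicate 2 left 7 higher, and 2 were lower without shSRSF1 replicate 3. Of 22 genes of the unfolded protein response, 2 were higher (9.09%) and 3 lower (13.6%), near the shares over all tested genes. The chaperone DNAJB9 had 6.79, 5.38 and 6.94 FPKM in shSRSF1 cells, 23.9, 19.2 and 23.5 FPKM in starved cells and 9.83, 8.16 and 9.74 FPKM in fed cells. DNAJC3 and CRELD2 had the same order of groups, lowest in shSRSF1 and highest in starved cells. Leaving out a fed library left 0 or 1 of these 3 falls, leaving out shSRSF1 replicate 3 left 4 higher, and SYVN1, a ubiquitin ligase of the same organelle, was higher by 0.59 ± 0.12 (limma adjusted p = 0.0076).

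A share of the genes of amino acid supply and thiol metabolism fell. Of 38 tested ATF4 targets and amino acid response genes, 11 were lower (28.9%) and 2 higher (5.26%) by limma (median -0.17). Of 22 NRF2, glutathione and thioredoxin genes 5 were lower (22.7%) and 1 higher (4.55%), with a median of -0.23. Over all tested genes 9.75% were lower and 8.43% higher. TXNRD1, the cytosolic thioredoxin reductase, had 13.6, 12.3 and 11.4 FPKM in shSRSF1 cells, 52.6, 51.3 and 60.1 FPKM in starved cells and 42.8, 43.3 and 42.1 FPKM in fed cells. It fell by 70.9% against fed cells (difference -1.71 ± 0.09, limma adjusted p = 2.18e-06), and starved cells lay above fed cells. SLC7A11, the cystine importer, had 3.25, 2.65 and 3.02 FPKM in shSRSF1 cells, 28.0, 16.3 and 23.9 FPKM in starved cells and 9.24, 9.24 and 7.49 FPKM in fed cells. The groups did not overlap, with shSRSF1 cells lowest, fed cells between and starved cells highest. The difference of shSRSF1 from fed cells was -1.28 ± 0.17 (limma adjusted p = 0.00101). CHAC1, which degrades glutathione, had 5.30, 5.63 and 3.08 FPKM in shSRSF1 cells, 15.5, 19.6 and 19.3 FPKM in starved cells and 14.9, 15.3 and 14.9 FPKM in fed cells. PSAT1, of serine synthesis, had 114, 119 and 101 FPKM in shSRSF1 cells, against 194, 186 and 187 FPKM in fed cells.

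Without shSRSF1 replicate 3, 4 of the ATF4 list were higher. Exceptions within these lists were GDF15, a stress cytokine, at 1.59, 1.32 and 1.21 FPKM in shSRSF1 cells against 0.20, 0.18 and 0.38 FPKM in fed cells, and the autophagy receptor SQSTM1, higher by 0.60 ± 0.10. GDF15 passed the level filter only through the shSRSF1 libraries, so it could enter only as a rise. HMOX1, the haem oxygenase, was lower than in fed cells in both starved groups, at 12.1, 10.96 and 11.1 FPKM in shSRSF1 cells, 6.74 to 7.14 FPKM in starved cells and 17.2 to 18.9 FPKM in fed cells. APP, the amyloid precursor protein, had 25.8, 25.4 and 29.6 FPKM in shSRSF1 cells, 68.2, 70.6 and 71.6 FPKM in starved cells and 83.2, 90.8 and 87.9 FPKM in fed cells. Its fall of 69.2% against fed cells was second to TXNRD1 among the named genes on the log2 scale (difference -1.66 ± 0.08, limma adjusted p = 1.67e-06).

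The ID genes, targets of BMP signalling that hold back differentiation factors, were low. Of 20 TGF-beta and BMP feedback genes, 6 were lower (30%) and 3 higher (15%) by limma, against 9.75% and 8.43% of all tested genes (median -0.23). ID2 had 29.5, 24.9 and 25.2 FPKM in shSRSF1 cells, 43.1, 43.2 and 41.7 FPKM in starved cells and 77.8, 72.8 and 79.5 FPKM in fed cells. ID3 had 20.5, 22.996 and 14.2 FPKM in shSRSF1 cells, 26.5, 32.9 and 27.8 FPKM in starved cells and 50.2, 48.8 and 59.1 FPKM in fed cells. ID1 had 8.13, 6.71 and 3.96 FPKM in shSRSF1 cells, 7.15, 5.75 and 6.47 FPKM in starved cells and 15.5, 14.5 and 15.4 FPKM in fed cells. For ID1 the 2 starved groups overlapped, and for ID2 and ID3 shSRSF1 cells were the lowest. The inhibitory SMAD6 differed by -0.83 ± 0.11 (limma adjusted p = 0.00114). The 3 higher members numbered 0 or 1 when a fed library was left out.

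Other large falls came in genes with no shared list. GAMT, which makes creatine, had 8.16, 8.22 and 4.98 FPKM in shSRSF1 cells, 5.09, 6.596 and 4.61 FPKM in starved cells and 19.6, 19.4 and 24.5 FPKM in fed cells. ARL6IP5, a membrane protein of the endoplasmic reticulum, had 25.5, 23.2 and 22.97 FPKM in shSRSF1 cells, 26.7, 27.8 and 26.0 FPKM in starved cells and 61.0, 60.6 and 61.8 FPKM in fed cells. In both, the starved groups were low together and their difference did not pass the test (limma adjusted p = 0.172 and 0.1). MFSD3, a membrane transporter family member, had its lowest mean in starved cells, at 14.9, 16.2 and 6.84 FPKM in shSRSF1 cells, 4.47, 7.89 and 5.84 FPKM in starved cells and 30.9, 29.7 and 33.9 FPKM in fed cells. HMGN5, a nucleosome-binding protein, and FAM217B fell to 14.3 and 4.25 FPKM in shSRSF1 cells, against 40.4 and 11.9 FPKM in fed cells, with starved cells between at 26.3 and 5.95 FPKM. The tetraspanin CD81 had 8.55, 9.09 and 6.51 FPKM in shSRSF1 cells, 18.8, 21.6 and 19.2 FPKM in starved cells and 19.6, 22.6 and 20.9 FPKM in fed cells, so here starved and fed cells stood together.

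Of 27 p53 targets, 7 were higher by limma and the other 20 did not pass (median 0.16), and 12 were higher and 2 lower without shSRSF1 replicate 3. 293T cells express large T antigen, which binds p53. CDKN1A, the inhibitor p21, had 31.1, 32.3 and 23.2 FPKM in shSRSF1 cells, 10.2, 12.0 and 11.9 FPKM in starved cells and 11.4, 11.3 and 11.5 FPKM in fed cells (difference from fed 1.26 ± 0.12, limma adjusted p = 0.000144). The antiproliferative BTG2 averaged 27.1 FPKM in shSRSF1 cells, 16.2 FPKM in starved cells and 13.0 FPKM in fed cells. TNFRSF10D, a decoy receptor of TRAIL, was highest in starved cells, at 5.69, 4.14 and 4.51 FPKM in shSRSF1 cells, 11.3, 12.7 and 12.0 FPKM in starved cells and 1.84, 2.31 and 2.05 FPKM in fed cells. Of 23 G1 regulators, 3 were higher (13.0%) and 2 lower (8.70%), 0 were lower without fed replicate 1 or 2, and 7 were higher without shSRSF1 replicate 3. The phosphatase CDC25A rose by 0.64 ± 0.10 and the kinase CDK6 differed by -0.60 ± 0.14.

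Of 40 mitosis genes, 6 were lower (15.0%, against 9.75% of all tested genes) and 1 higher. CENPE, a kinetochore motor, had 3.39, 1.84 and 3.01 FPKM in shSRSF1 cells, 10.9, 4.04 and 8.78 FPKM in starved cells and 12.0, 8.93 and 6.94 FPKM in fed cells. CDK1, the mitotic kinase, had 37.9, 36.6 and 28.1 FPKM in shSRSF1 cells, 43.8, 32.7 and 45.5 FPKM in starved cells and 58.6, 56.7 and 52.5 FPKM in fed cells. In both, shSRSF1 libraries lay below all fed libraries, and in CDK1 they overlapped with starved libraries. CENPF and TOP2A, 2 large proteins of dividing nuclei, differed by -0.89 ± 0.22 and -0.61 ± 0.17 (limma adjusted p = 0.0208 and 0.032). Of 48 replication genes, 10 were lower (20.8%) and 3 higher (6.25%). ORC2, a subunit of the origin complex, had 7.89, 7.63 and 7.99 FPKM in shSRSF1 cells, against 13.5, 12.8 and 11.6 FPKM in fed cells. Lower mitosis genes numbered 2, 3 and 4 without fed replicate 1, 2 or 3 and 3 without shSRSF1 replicate 2. Lower replication genes numbered 4, 3 and 3 without fed replicate 1, 2 or 3, 6 and 4 without shSRSF1 replicate 1 or 2, and 6 and 5 without starved replicate 1 or 3.

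Splicing factors of the family of SRSF1 were among the lower genes. Of 24 SR proteins and their kinases, 7 were lower (29.2%) and 2 higher (8.33%) by limma, against 9.75% and 8.43% of all tested genes (median -0.27). SRSF6 had 16.0, 13.8 and 15.7 FPKM in shSRSF1 cells, 38.4, 30.9 and 34.2 FPKM in starved cells and 31.8, 28.7 and 26.8 FPKM in fed cells (difference from fed -0.90 ± 0.10, limma adjusted p = 0.000469). SRSF8 had 9.72, 8.54 and 7.26 FPKM in shSRSF1 cells, 12.8 to 13.8 FPKM in starved cells and 14.2 to 16.3 FPKM in fed cells. In both genes shSRSF1 libraries lay below all others. CLK3, a kinase that phosphorylates SR proteins, was higher by 0.65 ± 0.08, and the SR-like factor TRA2A was lower, with a difference of -0.54 ± 0.14. Of 25 hnRNP genes, which often act against SR proteins, 6 were lower by limma (24%) and the other 19 did not pass. HNRNPAB had 160, 150 and 111 FPKM in shSRSF1 cells, 206, 259 and 231 FPKM in starved cells and 287, 272 and 250 FPKM in fed cells. HNRNPA1 (difference -0.52 ± 0.10) has many processed copies, so its reads are uncertain. Leaving out fed replicate 1 left 2 SR genes and 3 hnRNP genes lower, fed replicate 2 left 4 and 3, and shSRSF1 replicate 2 left 4 SR genes.

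Nonsense-mediated decay and exon junction factors were higher in 6 of 23 cases by limma (26.1%, against 8.43% of all tested genes). However, leaving out a fed library left 1 or 2 and leaving out shSRSF1 replicate 2 left 2. SMG8, a cofactor of the decay kinase, had 16.6, 18.01 and 19.3 FPKM in shSRSF1 cells, 7.92, 7.74 and 8.48 FPKM in starved cells and 13.6, 13.7 and 13.5 FPKM in fed cells. SMG5, a partner of the same pathway, and CASC3, an exon junction core protein, were higher by 0.35 and 0.34 on the log2 scale. Of 77 cytosolic ribosomal protein genes, limma called 0 in either direction. At an unadjusted p below 0.05 they numbered 1 higher and 6 lower, edgeR called 1 higher and 1 lower, and DESeq2 called 2 higher and 0 lower. Their median difference was 0.02, with RPS28 lowest (14.9 FPKM in shSRSF1 and 37.7 FPKM in fed cells, limma adjusted p = 0.0618). Of 59 genes of ribosome biogenesis, 3 were higher (5.08%) and 5 lower (8.47%), no more than over all tested genes, with RRP12, a factor of subunit export, at 14.1, 15.9 and 15.2 FPKM in shSRSF1 cells, 13.6, 15.8 and 15.0 FPKM in starved cells and 8.62, 9.60 and 9.46 FPKM in fed cells. The count of lower biogenesis genes ran from 0 without fed replicate 1 to 11 without starved replicate 2, with 1 without fed replicate 2 or 3, 2 without shSRSF1 replicate 2, 3 without starved replicate 3 and 8 without shSRSF1 replicate 3.

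Among immune genes, NF-kB feedback genes and cytokines were higher in 5 of 10 tested cases by limma (50%, against 8.43% of all tested genes), of 23 listed. RELB, a subunit of the non-canonical arm, had 2.96, 3.68 and 2.91 FPKM in shSRSF1 cells, 2.22, 2.73 and 2.42 FPKM in starved cells and 0.89, 0.66 and 0.65 FPKM in fed cells. RELA and BCL3 were higher by 0.65 and 0.60, but BCL3 passed the level filter only through the shSRSF1 libraries. Interferon and double-stranded RNA response genes were higher in 4 of 16 cases (25%). IFIT2, which binds viral RNA, had 49.4, 41.3 and 50.1 FPKM in shSRSF1 cells, 28.5, 23.2 and 29.8 FPKM in starved cells and 30.8, 29.1 and 30.1 FPKM in fed cells, and IFIT3 differed by 0.77 ± 0.13 (limma adjusted p = 0.00447).

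Of 39 autophagy and lysosome genes, 7 were higher (17.9%, against 8.43% of all tested genes) and 4 lower (10.3%, near the 9.75% of all) by limma. TFE3, a factor for lysosomal genes, had 20.1, 22.9 and 20.6 FPKM in shSRSF1 cells, 16.8, 18.1 and 18.1 FPKM in starved cells and 11.4, 12.9 and 13.5 FPKM in fed cells. LAMP1, a lysosomal membrane protein, had 13.1, 12.7 and 13.95 FPKM in shSRSF1 cells, 31.0, 35.4 and 32.8 FPKM in starved cells and 20.2, 21.1 and 21.6 FPKM in fed cells. Leaving out fed replicate 1 or 2 left 4 higher genes, and 2 were lower without fed replicate 1. Of 54 nuclear genes of oxidative phosphorylation, 6 were lower (11.1%, near the 9.75% of all tested genes) and 1 higher (1.85%). When a fed library was left out 1 or 2 were lower and 0 higher, and 0 were higher without shSRSF1 replicate 1 or 3. Of 13 mitochondrially encoded mRNAs limma called 0, edgeR called 0, and DESeq2 called 2 higher, with 2 higher at an unadjusted p below 0.05. Their median difference was 0.29 with all libraries and 0.03 without shSRSF1 replicate 3. Histone genes gave 2 of 14 higher and 2 lower (14.3% each). They gave 1 higher and 0 or 1 lower without a fed library and 4 lower without shSRSF1 replicate 2. H2AX, the variant phosphorylated at DNA breaks, differed by -0.59 ± 0.16. In the MYC network 1 of 12 was higher (8.33%, near the 8.43% of all tested genes), and 0 when any fed library was left out. It was MXI1, a MYC antagonist, by 0.39. Of 10 iron genes, 1 was higher and 1 lower (10% each), near the shares over all tested genes. The importer SLC11A2 was higher by 0.39. The reductase STEAP3 differed by -0.40, a call lost when any fed library was left out. Of 6 metallothionein and zinc genes, 1 was higher and 1 lower (16.7% each). The zinc-sensing factor MTF1 was higher by 0.55 (not called without fed replicate 3) and the zinc importer SLC39A4 differed by -0.77.

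The gene with the largest rise was HBB (chromosome 11, 5225464 to 5229395, minus strand, GRCh38), the beta chain of adult haemoglobin. It had 765, 980 and 801 reads in shSRSF1 replicates 1, 2 and 3, or 49.8, 49.3 and 46.8 FPKM. These are reads assigned to HBB, and a table of counts per gene does not show which sequence they came from, so the source of this signal is not resolved and the rise is not shown to be transcription of the chromosomal gene. The 3 starved libraries held 0 reads and the 3 fed libraries held 1 read. The ratio of depth-scaled reads, shSRSF1 over fed, was 2746 (95% interval 492 to 108520, counting error only). HBD, HBG1, HBG2 and HBE1, the other genes of the same cluster, had 0 reads in all 9 libraries. HBA1 had 13 reads in shSRSF1, 9 in starved and 6 in fed libraries. Of the other 14 erythroid markers, GYPB and AHSP had 0 reads, and ALAS2, SLC4A1, KLF1 and GATA1 had 5 to 13 reads over the 3 shSRSF1 libraries and 2 to 8 over the fed libraries. HBQ1, a theta globin, was lower, with 87 reads over shSRSF1 and 192 reads over fed libraries. HBB was as high in shSRSF1 replicates 1 and 2 as in replicate 3, the library in which the leukocyte genes stood apart.

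Another 6 genes were nearly absent from fed cells, by a limit of at most 3 reads over the 3 fed libraries and at least 10 in each shSRSF1 library. Among them were CCR4, ETV7, RFPL4A, SPRY4 and XIRP1. XIRP1, an actin-binding protein of striated muscle, had 60 reads in shSRSF1 and 0 in fed and in starved libraries. The ratio was at least 17.0-fold (lower 95% bound, counting error only). XIRP1 was chosen by a limit on these same reads, which the bound does not allow for. By the same limits, 0 genes were present in fed and nearly absent from shSRSF1 libraries.

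The share of called genes differed with base composition. Of genes in the lowest quartile of transcript GC content, 1.98% were higher and 14.7% lower, against 13.6% higher and 7.05% lower in the third quartile and 9.64% and 7.98% in the highest. Chromosome 13 had 3.59% higher and 16.9% lower of 195 tested genes, and chromosome 19 had 11.6% higher and 4.32% lower of 764. Gene length and mean level made smaller differences. The part of base composition in the calls was measured only by removing the GC trend, which raised the higher genes to 1206 and the lower genes to 1685.

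**Figure D5:**
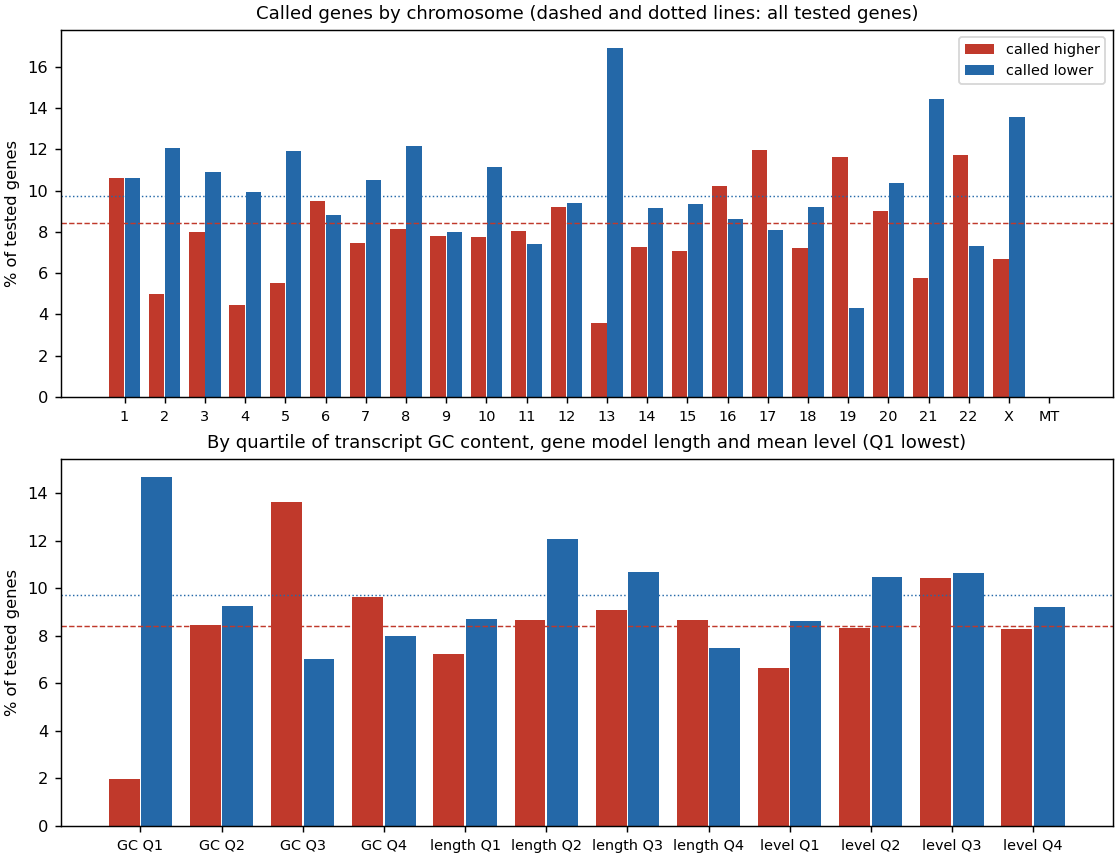
Percent of tested genes called higher (red bars) and lower (blue bars) in starved shSRSF1 against fed cells, by chromosome (upper panel) and by quartile of GC content, gene model length and mean level (lower panel). The dashed line is 8.43% and the dotted line 9.75%, the shares over all tested genes. The lowest GC quartile has 1.98% higher and 14.7% lower genes.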

How the data were processed

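RNA of 293T cells was sequenced from SMARTER mRNA libraries made from 1.3 µg of RNA, per the labels' protocols. The authors' deposited table calls its values FPKM, but its signal values are whole reads divided by 1 size factor a library: to a relative tolerance of 1e-08, 100% of values were whole multiples of 1 step. For aligner and counter, the tools are not given in the sources used here. Although human cells were used, the submitters' processing notes name mm10, and 19830 of 19849 identifiers found in GENCODE release 29 overlapped their human GRCh38 position. Another 6 samples, of SRPK1 and UPF1 hairpins, were not analysed here. A few genes are not reported here.

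FPKM was computed from each value, the deposited length and the library sum. Planning had assumed deposited FPKM. Genes with 1 FPKM in at least 3 libraries (11133) were tested on log2(FPKM + 1) with limma (trend) over 9 libraries, with Benjamini-Hochberg adjustment. That scale understates changes of low genes, so folds of mean FPKM are given too. Replicates with the same number did not deviate together, so no pairing was used. Intervals of read ratios cover counting error only and do not allow for the choice of genes by their reads. Reads shared by near-identical or overlapping genes may be split between them.

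The comparison, members and lists were chosen with earlier results of these data known. Lists share members, such as IER3, MAFF, CCN2, BHLHE40, GADD45A, CHAC1 and SLC7A11, so their counts are not independent. Named genes are the 12 largest differences each way, at a mean of 5 FPKM or more and without overlap, up to 4 called members a list, globins, SRSF1, SRPK1 and UPF1. PGAM4, LYZ and the other genes of shSRSF1 replicate 3, the members named for a promoter word, SPRY4, RPS28, the nearly absent genes and the marker genes stand outside that rule and were chosen after their values were seen. Alternatives covered pseudocount, filter, scaling, variance model, GC trend and leaving out each library. They also covered edgeR and DESeq2 on recovered reads of the shSRSF1 and fed libraries only. The fit was first run on simulated reads drawn from the fed means. These held no shift in starved cells, no replicate standing apart and no GC trend, so such conditions were not checked. Versions were limma 3.58.1, DESeq2 1.42.0 and edgeR 4.0.16 in R 4.3.3, and pandas 2.3.3, numpy 2.4.6, matplotlib 3.10.9 and scipy 1.17.1 in Python 3.11.15.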

Additional observations from a re-analysis of the deposited data

How the results depend on the processing

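The count of 2023 called genes ran from 1473 to 2891 under the settings that left out no single replicate, and lay at 1473 with TPM scaling. With only the shSRSF1 and fed libraries it was 1768 by limma, 1930 by edgeR and 2351 by DESeq2. It was lowest when a library was left out, from 824 without fed replicate 1 to 2424 without shSRSF1 replicate 3. Genes called higher then ran from 423 to 1188 and genes called lower from 401 to 1356. Removing the trend on GC content raised the higher genes to 1206 and the lower genes to 1685, and the cause was not tested. A fit with a replicate block called 1969 genes. The same replicate numbers did not pair the libraries, with correlations of deviations of 0.02, -0.29 and -0.42. Over the named genes and these settings, 3217 values kept their call, 217 kept direction only and 0 reversed. Where a gene was called in neither fit, its direction was not compared.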
